A study of Drosophila melanogaster with 6 samples.

Results

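Digestive serine proteases of the Jonah and trypsin families were examined in whole larvae of the *ecd1* mutant and of the *w1118* control strain. The members were chosen by gene symbol. They were the 16 genes named Jon with a number, the 11 trypsin genes that carry a Greek letter, and the serine protease genes *Ser6*, *Ser7*, *Ser8* and *Ser12*, which made 31 of the 17606 genes in the table. *ecd1* is a recessive, temperature-sensitive allele of *ecdysoneless* (*ecd*), in which a serine replaces a proline, and *ecd* encodes a protein needed for assembly of the U5 small nuclear ribonucleoprotein of the spliceosome. *w1118* is a strain with a mutation in the eye color gene *white*. Larvae of both genotypes grew at 18°C for 10 days and then spent 2 days at 29°C, the restrictive temperature for the mutant protein, so the controls experienced the same shift. Total RNA of 8 larvae in the third instar made 1 sample, and there were 3 samples of each genotype. The RNA came from the whole animal, so fewer gut cells and less RNA per gut cell cannot be told apart in any of the values below.

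Jonah and trypsin proteases belong to the S1 family of serine endopeptidases. In *Drosophila*, they are made in the midgut, where enterocytes release them into the lumen to break down dietary protein. Trypsins cut proteins after lysine or arginine and are synthesized as inactive precursors that lose a short peptide when activated. The Jonah genes were named for their expression in the gut and encode chymotrypsin-like relatives. Both families grew by tandem duplication, so that several of their genes lie side by side and some are nearly identical.

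The members lie in few places of the genome (dm6 build, positions from the Ensembl annotation). All 11 trypsins sit between positions 11336840 and 11357537 of chromosome arm 2R, within 20.7 kb, and none of them has an intron. The Jonah genes form a cluster of 4 on 3L (Jon65A, 6039155 to 6054443), a pair on 3L (Jon66C, 8391540 to 8393649), a cluster of 3 on 3R (Jon99C, 29922216 to 29926189), a pair on 3R (Jon99F, 30487016 to 30489895) and a cluster of 3 on 2L (Jon25B, 4949941 to 4955144). *Jon44E* on 2R and *Jon74E* on 3L stand alone. Of the 31 members, 6 have an annotated intron and 25 have none.

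The normalized counts used here are reads per gene divided by 1 size factor per sample. The libraries held 78438192 to 118102006 gene-assigned reads in *ecd1* and 74581798 to 107943245 in *w1118*. At most a fraction of 0.503 of the reads lay on 1 strand in any sample, so genes that overlap on opposite strands could not be separated. Mean insert size was 138.7 ± 0.503 in *ecd1* and 161.5 ± 1.37 in *w1118* (SD, n = 3 each), and its effect cannot be told apart from that of genotype. The *w1118* replicate 1 stood apart from the other control samples, with Spearman correlations of 0.973 and 0.974 to them across genes, while those shared 0.995. The summed count of 6 salivary glue genes, which are switched on late in the third instar, was between 139.8 and 479 in *ecd1*, 642244 in *w1118* replicate 1, and 191 and 234 in the other *w1118* samples. The sum of 3 fat body genes (*Lsp2*, *Fbp1* and *Fbp2*) was also uneven, with 667 to 195588 in *ecd1* and 100822 to 976493 in *w1118*. None of these 9 genes passed with limma, 1 fat body gene had an unadjusted p below 0.05, and edgeR called 1 glue gene and DESeq2 0. All *ecd1* samples were below all controls for *Lsp2* (−5.80, adjusted p = 0.0595), which passed with the replicate number as a block (adjusted p = 0.0053), and for *Sgs1* (−4.74, adjusted p = 0.151), which passed without *w1118* replicate 1 (adjusted p = 0.0302). The part of these genes in the protease changes was not tested. Where leaving out *w1118* replicate 1 changed the call of a gene described here, the value without it is given. The *ecd* mRNA stood at 2111, 2218 and 2397 normalized counts in *ecd1* and 2085, 1563 and 1565 in *w1118* (limma adjusted p = 0.0769). All *ecd1* samples were above all controls, and without *w1118* replicate 1 the difference passed (adjusted p = 0.0106). The allele is a point mutation, so this level does not check the labels.

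Digestive proteases were among the most abundant mRNAs of the larvae, and as a group they took a smaller share of the normalized counts in *ecd1*. The 31 members together held 3.87%, 4.12% and 4.67% of all normalized counts in the *ecd1* samples, against 7.24%, 7.34% and 7.02% in the *w1118* samples. Every *ecd1* sample was below every *w1118* sample, and the ratio of the mean sums was 0.615, or 0.618 without *w1118* replicate 1. These sums are a description and were not tested. The Jonah genes made up most of them, with 3.10%, 3.25% and 3.81% in *ecd1* and 6.35%, 6.02% and 5.73% in *w1118*. The trypsins held 0.766%, 0.867% and 0.853% in *ecd1* and 0.887%, 1.31% and 1.28% in *w1118*, so that *w1118* replicate 1 was close to the *ecd1* samples in this family.

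**Figure D1:**
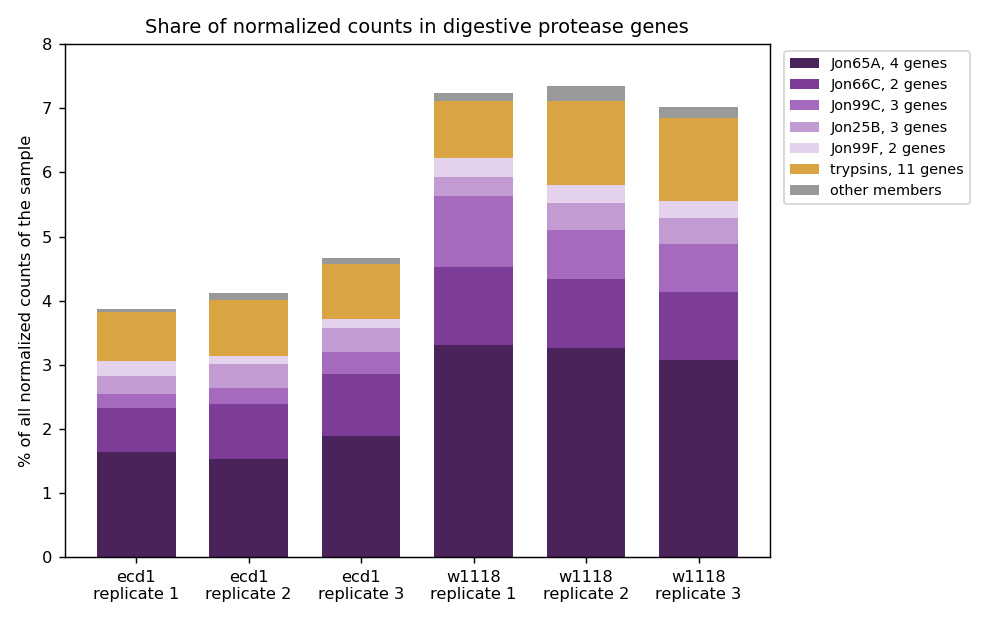
Stacked bars give the share of all normalized counts (%, axis from 0) held by digestive protease genes in each of the 3 ecd1 and 3 w1118 samples, divided by gene cluster. The bars reach 3.87% to 4.67% in ecd1 and 7.02% to 7.34% in w1118. The Jon65A, Jon66C, Jon99C, Jon99F and trypsin segments are smaller in every ecd1 sample, while the Jon25B segments overlap between the genotypes.

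Per kilobase of exon, *Jon65Aiv* had the highest level of any gene in both genotypes, with 1182693 ± 127741 normalized counts per kb in *ecd1* and 1831412 ± 93225 in *w1118* (SD, n = 3 each). Among the 50 genes with the highest level per kb there were 6 members in *ecd1* and 11 in *w1118*. The members with the highest levels in *ecd1* were *Jon65Aiv*, *Jon66Ci*, *epsilonTry*, *Jon65Aiii* and *betaTry*, in that order, and the samples of *epsilonTry* and *Jon65Aiii* overlapped. In *w1118* the order was *Jon65Aiv*, *Jon65Aiii*, *Jon66Ci*, *epsilonTry* and *Jon99Cii*, and *epsilonTry* and *Jon99Cii* overlapped. Thus *Jon65Aiii* stood below *Jon66Ci* and *epsilonTry* in the mutant order and above both in the control order. Down the whole order of 28 members, 16 of 27 neighboring pairs overlapped in *ecd1* and 17 of 27 in *w1118*. The lowest of the 28, *Jon74E*, had 703 ± 106 counts per kb in *ecd1* and 1603 ± 244 in *w1118*, and the means of the highest and lowest member in *w1118* differed 1143-fold.

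Changes were tested with limma on log2(normalized count + 1) over 12930 genes, those that averaged 10 or more normalized counts across the 6 samples, with Benjamini-Hochberg adjustment over all of them. Fold changes below are differences on this log2 scale, *ecd1* minus *w1118*, and a gene passed at an adjusted p below 0.05. The test covered 28 members, which were the 16 Jonah genes, the 11 trypsins and *Ser6*, and their lowest mean was 635 normalized counts in *ecd1* and 1441 in *w1118*, far above the filter. Of these 28, 11 fell (39.3%), where 19.1% of all genes tested fell, and 1 rose (3.57%), where 16.0% of all genes rose. Asking in addition for a change of at least 2-fold left 8 members that fell (background 14.7%) and 1 that rose (background 5.10%). All 3 *ecd1* samples lay below all 3 *w1118* samples in 16 members (57.1%, background 26.9%) and above them in 1 (3.57%, background 26.7%), and the genotypes overlapped in 11. The log2 fold change was negative in 23 of the 28 members, with a median of −0.50, against a median of 0.01 over all genes tested. Without *w1118* replicate 1, 14 members fell, 1 rose and the median was −0.61. In that fit 2709 of all 12870 genes tested fell and 2448 rose.

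**Figure D2:**
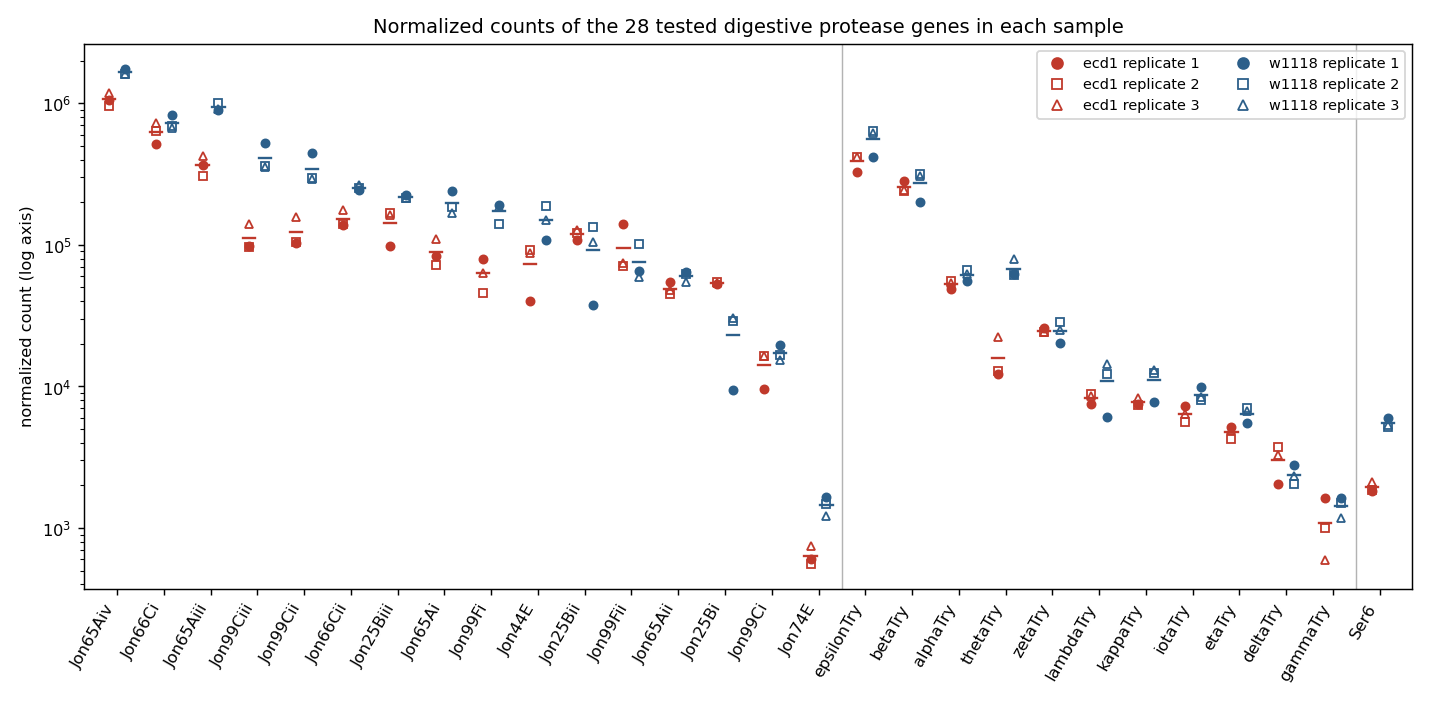
Each point is the normalized count (log axis) of 1 of the 28 tested members in 1 sample, with ecd1 on the left and w1118 on the right for each gene and a short line at the mean of the 3 samples. Jonah genes come first, then trypsins, then Ser6, each family ordered by mean level. Separation is widest for thetaTry and Jon99Ciii, and w1118 replicate 1 (filled blue circle) lies far below the other w1118 samples for Jon25Bi and Jon25Bii.

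Among the Jonah genes, 7 of 16 fell (43.8%, background 19.1%), 1 rose (6.25%, background 16.0%) and 8 did not pass. Their median log2 fold change was −0.70. The largest decreases were in the Jon99C cluster, whose genes encode gut chymotrypsin-like proteases. *Jon99Ciii* had 97391, 96912 and 141328 normalized counts in *ecd1* and 520529, 359106 and 355438 in *w1118*, and its highest *ecd1* sample was well below its lowest *w1118* sample. It fell by 1.88 (SE 0.23, adjusted p = 0.0041), or 3.68-fold. Its neighbor *Jon99Cii* had 103850, 105048 and 158334 in *ecd1* and 441971, 298366 and 292589 in *w1118*. Its genotypes did not overlap either, and it fell by 1.49 (SE 0.24, adjusted p = 0.0064). These are close relatives that may share reads, and their summed count was 201241, 201960 and 299661 in *ecd1* and 962500, 657473 and 648027 in *w1118*, which did not overlap. In contrast, *Jon99Ci*, the only gene of the cluster with an intron, had 9582, 16485 and 16444 in *ecd1* and 19473, 16634 and 15460 in *w1118*. Its samples overlapped and it did not pass (−0.32, SE 0.23, adjusted p = 0.312). Without *ecd1* replicate 1 the difference was −0.055.

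The Jon65A cluster holds *Jon65Aiv*, the most abundant member. *Jon65Aiii* had 366873, 306746 and 420783 normalized counts in *ecd1* and 897134, 1007577 and 904378 in *w1118*, and it fell by 1.37 (SE 0.19, adjusted p = 0.0049). *Jon65Ai* had 83734, 72354 and 110229 in *ecd1* and 239416, 184753 and 167862 in *w1118*, and it fell by 1.16 (SE 0.21, adjusted p = 0.0081). Neither gene had overlapping genotypes. *Jon65Aiv* had 1061603, 957637 and 1188223 in *ecd1* and 1752462, 1615242 and 1599086 in *w1118*. All of its *ecd1* samples were below the controls, but the change of −0.64 (SE 0.22) did not pass with an adjusted p of 0.0595. *Jon65Aii* was also lower in each *ecd1* sample, with a range of 44912 to 54670 in *ecd1* and 54977 to 64352 in *w1118*, and did not pass (−0.30, SE 0.12, adjusted p = 0.0932). *Jon65Aiv* passed with edgeR (adjusted p = 0.0140) and DESeq2 (adjusted p = 6.8e-06) on recovered reads and with limma without a variance trend (adjusted p = 0.0148). It did not pass when any 1 sample was left out (adjusted p = 0.0793 to 0.204), with the replicate block (adjusted p = 0.0763) or with quantile normalization, where the change was −0.30 (adjusted p = 0.325).

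In each of the Jon66C and Jon99F pairs, 1 gene fell and its neighbor did not pass. *Jon66Cii* had 139160, 140980 and 175926 normalized counts in *ecd1* and 242111, 252035 and 266788 in *w1118*, without overlap, and fell by 0.75 (SE 0.15, adjusted p = 0.0103). *Jon66Ci* had 511564, 635267 and 729933 in *ecd1* and 832799, 691154 and 669734 in *w1118*. The genotypes overlapped for *Jon66Ci*, which did not pass (−0.23, SE 0.21, adjusted p = 0.425). *Jon99Fi* had 79631, 45618 and 63674 in *ecd1* and 192394, 141178 and 184167 in *w1118*, and it fell by 1.48 (SE 0.23, adjusted p = 0.0059). Its divergent neighbor *Jon99Fii* had 139799, 70332 and 74536 in *ecd1* and 65559, 102156 and 59681 in *w1118*, and its samples overlapped widely (0.29, SE 0.32, adjusted p = 0.502). The ratio of *Jon99Fi* to *Jon99Fii* counts was 0.570, 0.649 and 0.854 in *ecd1* and 2.93, 1.38 and 3.09 in *w1118*. Thus *Jon99Fi* had fewer counts than *Jon99Fii* in each *ecd1* sample and more in each *w1118* sample. Reads may be divided between these neighbors. Their summed count was 219429, 115950 and 138211 in *ecd1* and 257953, 243334 and 243849 in *w1118*, and every *ecd1* sum was below every *w1118* sum. The difference in change within either pair was not tested.

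Of the Jonah genes that stand alone, *Jon74E* had the lowest level and fell. It had 608, 556 and 741 normalized counts in *ecd1* and 1651, 1477 and 1214 in *w1118*, a change of −1.19 (SE 0.17, adjusted p = 0.0051). *Jon44E* had 40363, 92032 and 88299 in *ecd1* and 108751, 189358 and 149517 in *w1118*. The genotypes did not overlap for *Jon44E*, although replicate 1 was the lowest sample of each, and it did not pass (−1.08, SE 0.36, adjusted p = 0.0564). In a fit with a block for replicate number, *Jon44E* passed with an adjusted p of 0.0085, and without *w1118* replicate 1 with an adjusted p of 0.0410. It also passed with DESeq2 (adjusted p = 0.0107) and quantile normalization (adjusted p = 0.0241), but not with edgeR (adjusted p = 0.0617). It shares its locus with *CG8586* on the opposite strand, which had 648, 605 and 853 normalized counts in *ecd1* and 1622, 678 and 665 in *w1118*, far fewer than *Jon44E*.

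The Jon25B cluster held the only member that rose, beside a gene that was lower in each *ecd1* sample. *Jon25Bi* had 52734, 54966 and 53529 normalized counts in *ecd1* and 9503, 29215 and 30213 in *w1118*. It rose (1.40, SE 0.43, adjusted p = 0.0431). All *ecd1* samples were above all *w1118* samples and lay close together, while *w1118* replicate 1 was far below the other controls. Without *w1118* replicate 1 the change was smaller and passed (0.85, adjusted p = 0.0034), and without *ecd1* replicate 1, 2 or 3 it did not pass (adjusted p = 0.0953, 0.119 and 0.0989). It did not pass with quantile normalization either (1.18, adjusted p = 0.0692), but passed with edgeR (adjusted p = 0.0443) and DESeq2 (adjusted p = 0.0067). The adjacent *Jon25Bii* had 108688, 122187 and 128038 in *ecd1* and 37547, 133367 and 105320 in *w1118*. Its change of 0.56 (SE 0.44, adjusted p = 0.357) rested on *w1118* replicate 1, without which it was 0.01. The remaining gene of the cluster, *Jon25Biii*, had 98832, 168150 and 161902 in *ecd1* and 224462, 214017 and 214225 in *w1118*. It was lower in each *ecd1* sample but did not pass (−0.65, SE 0.22, adjusted p = 0.0608). *Jon25Biii* passed with DESeq2 (adjusted p = 0.0202) and quantile normalization (adjusted p = 0.0219). It did not pass with edgeR (adjusted p = 0.0690) or when any 1 sample was left out (adjusted p = 0.0703 to 0.128). The ratio of *Jon25Bi* to *Jon25Biii* counts was 0.534, 0.327 and 0.331 in *ecd1* and 0.0423, 0.137 and 0.141 in *w1118*. These ranges could not overlap, because *Jon25Bi* was higher and *Jon25Biii* lower in every *ecd1* sample, so the ratio adds no further result.

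**Figure D3:**
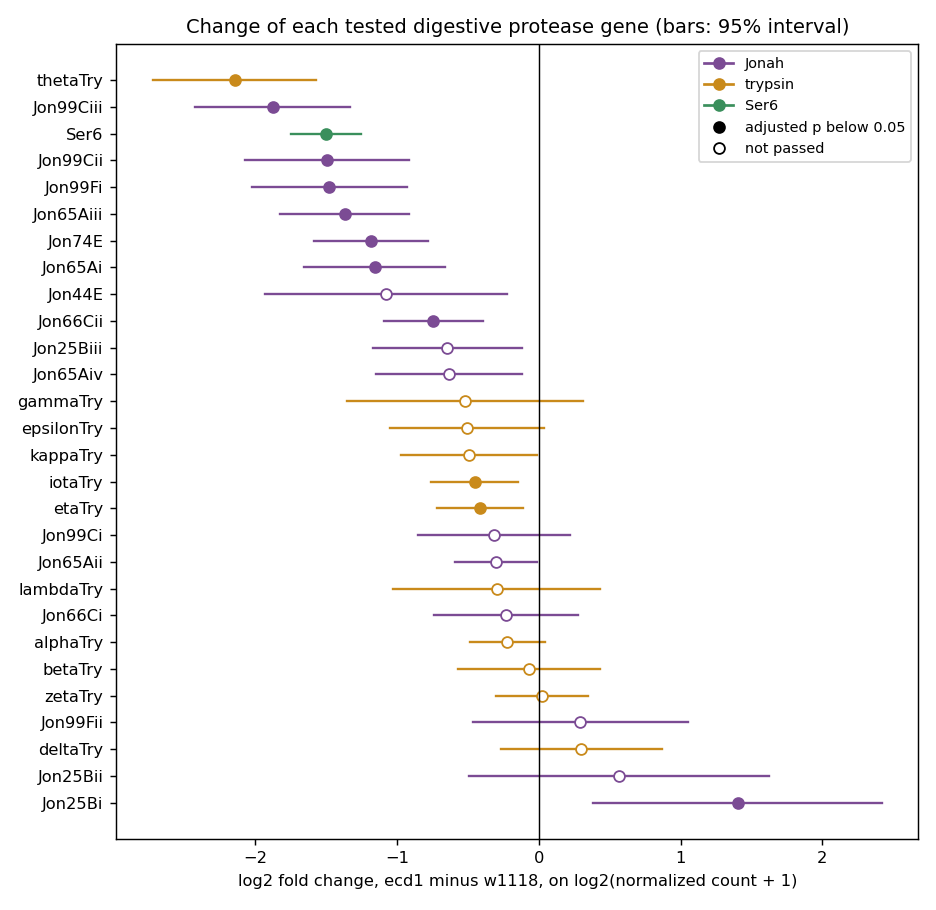
Points give the log2 fold change (ecd1 minus w1118, on log2(normalized count + 1)) of the 28 tested members, ordered by size, with the 95% interval from limma as a bar, and filled points passed at an adjusted p below 0.05. The changes run from −2.15 for thetaTry to 1.40 for Jon25Bi, and 23 of 28 lie left of 0.

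The median log2 fold change of the trypsins was −0.41, and 1 of them stood out. Of the 11 trypsins 3 fell with limma (27.3%, background 19.1%), against 1 with edgeR, 5 with DESeq2 and 4 at an unadjusted p below 0.05. Of all 12930 genes tested, 2397 fell with edgeR and 2936 with DESeq2. The number of trypsins that rose was 0 in each case, where 16.0% of all genes rose with limma. *thetaTry* had the deepest decrease of all members. It had 12216, 12897 and 22193 normalized counts in *ecd1* and 62741, 61282 and 79127 in *w1118*, and it fell by 2.15 (SE 0.24, adjusted p = 0.0035), or 4.43-fold. The next member in the cluster, *alphaTry*, had 48661, 55223 and 53849 in *ecd1* and 55910, 66102 and 62137 in *w1118*, a change of −0.22 (SE 0.11) that did not pass (adjusted p = 0.166). The ratio of *thetaTry* to *alphaTry* counts was 0.251, 0.234 and 0.412 in *ecd1* and 1.12, 0.927 and 1.27 in *w1118*.

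Smaller decreases were seen for *iotaTry* and *etaTry*. *iotaTry* had 7225, 5647 and 6341 normalized counts in *ecd1* and 9851, 7973 and 8456 in *w1118* (−0.45, SE 0.13, adjusted p = 0.0338). Its call was lost without *ecd1* replicate 2 (adjusted p = 0.116), *ecd1* replicate 3 (0.0893), *w1118* replicate 1 (0.0512) or *w1118* replicate 3 (0.0791). *etaTry* had 5184, 4277 and 4928 in *ecd1* and 5521, 7019 and 6681 in *w1118* (−0.41, SE 0.13, adjusted p = 0.0433). It passed without *w1118* replicate 1 (adjusted p = 0.0139), but not without any other sample (adjusted p = 0.0580 to 0.146) nor in the fit with the replicate block (adjusted p = 0.0792). Neither gene passed with edgeR, so both decreases are less firm than that of *thetaTry*, which passed with each of the 6 samples left out.

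The most abundant trypsins did not pass. *epsilonTry* had 328700, 417884 and 418304 normalized counts in *ecd1* and 416647, 640912 and 618153 in *w1118* (−0.51, SE 0.23, adjusted p = 0.129). *betaTry* had 282509, 240978 and 245416 in *ecd1* and 201027, 314870 and 305006 in *w1118* (−0.07, SE 0.21, adjusted p = 0.818). In both, *w1118* replicate 1 was the lowest control sample and the genotypes overlapped. *kappaTry* (7378 to 8241 in *ecd1*, 7787 to 13030 in *w1118*) and *lambdaTry* (7522 to 8910 in *ecd1*, 6066 to 14473 in *w1118*) had the same arrangement of samples, with changes of −0.49 (SE 0.20, adjusted p = 0.0988) for *kappaTry* and −0.30 (SE 0.31, adjusted p = 0.478) for *lambdaTry*. Without *w1118* replicate 1, *epsilonTry*, *kappaTry* and *lambdaTry* fell (adjusted p = 0.0273, 0.0053 and 0.0102), and *betaTry* did not pass (adjusted p = 0.160).

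A few trypsins had a positive difference, none of which passed. *zetaTry* had 25866, 24158 and 24184 normalized counts in *ecd1* and 20293, 28496 and 24914 in *w1118*, so its *ecd1* samples lay within the range of the controls (0.02, SE 0.14, adjusted p = 0.910). *deltaTry* had 2034, 3710 and 3279 in *ecd1* and 2784, 2056 and 2316 in *w1118* (0.30, SE 0.24, adjusted p = 0.360), and without *ecd1* replicate 1 it rose (adjusted p = 0.0497). *gammaTry*, a very close relative of *deltaTry*, had 1631, 1005 and 600 in *ecd1* and 1636, 1502 and 1184 in *w1118* (−0.52, SE 0.35, adjusted p = 0.281). Reads may be divided between these relatives, and the sum of *gammaTry* and *deltaTry* was 3665, 4715 and 3878 in *ecd1* and 4420, 3558 and 3500 in *w1118*, which overlap. *deltaTry* also overlaps *CG13202* on the opposite strand, which had at most 107 normalized counts in any sample.

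**Figure D4:**
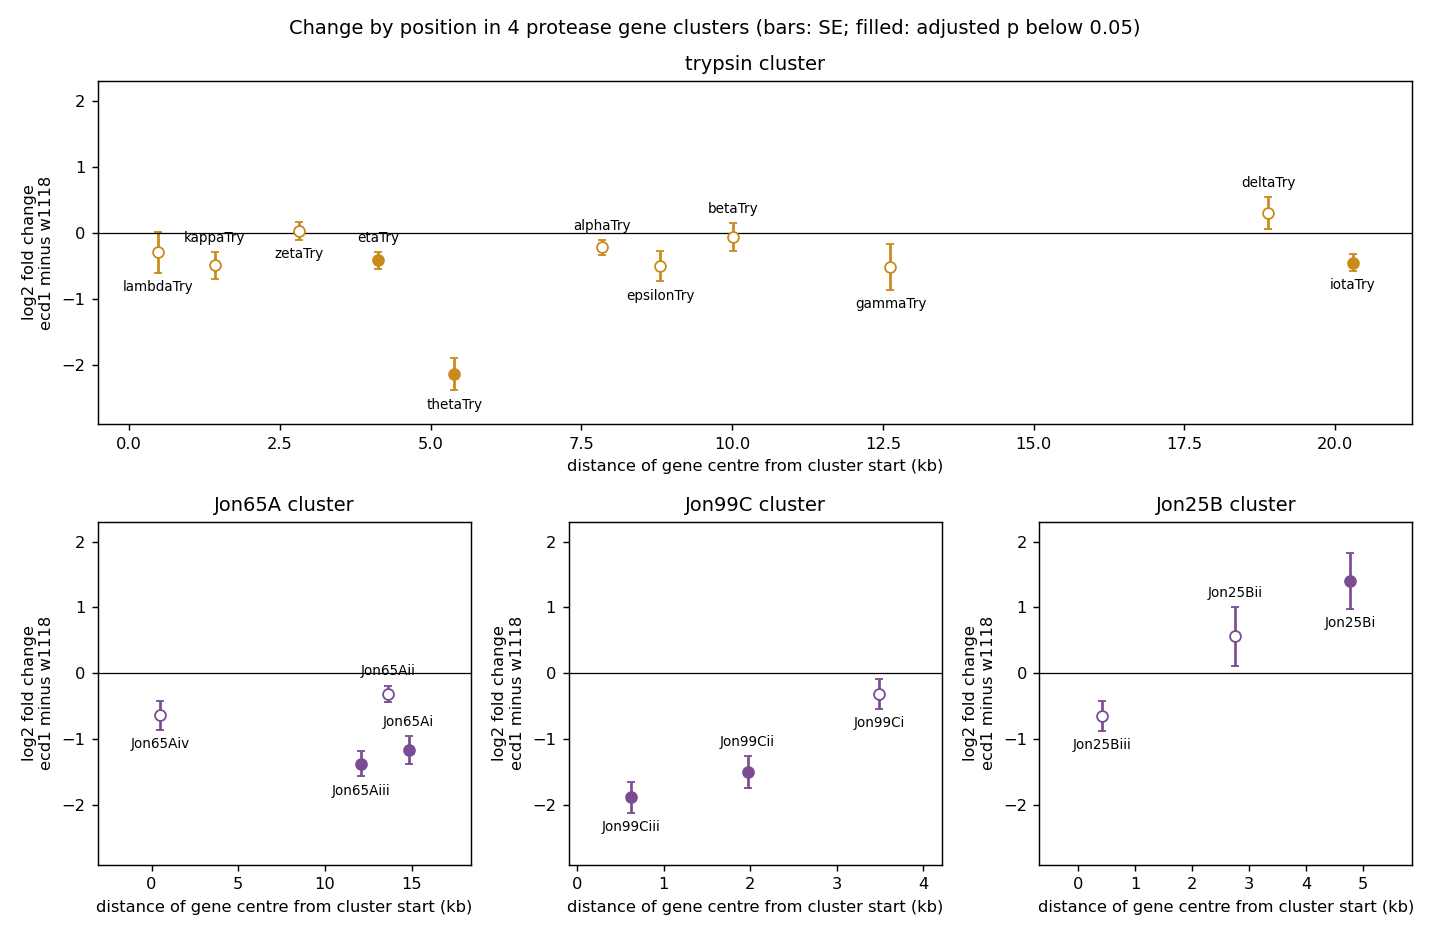
Log2 fold change (ecd1 minus w1118, bars are SE, filled points passed at an adjusted p below 0.05) is plotted against the distance of the gene's center from the start of its cluster in kb, for the trypsin, Jon65A, Jon99C and Jon25B clusters. thetaTry at −2.15 lies between etaTry at −0.41 and alphaTry at −0.22, and the Jon25B genes range from −0.65 to 1.40.

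The 4 genes named Ser were far less abundant, and only *Ser6* passed the filter on low counts. *Ser6*, a serine protease gene without introns on the X chromosome, had 1833, 1867 and 2115 normalized counts in *ecd1* and 5982, 5180 and 5346 in *w1118*. It fell by 1.50 (SE 0.10, adjusted p = 0.0014), or 2.84-fold, with the smallest SE of the members that fell. *Ser8* was covered by 7, 11 and 3 reads in *ecd1* and 7, 1 and 16 reads in *w1118*, and *Ser7* by 0, 3 and 8 reads in *ecd1* and 5, 2 and 1 in *w1118*. No read of *Ser12* was seen in any sample, and a count of 0 allows up to 3 reads per library. *Ser8* overlaps *ATP8A* on the opposite strand, which had 4746 to 5103 normalized counts in *ecd1* and 4089 to 4578 in *w1118*, so the few reads of *Ser8* cannot be assigned to a strand. *Ser7*, *Ser8* and *Ser12* were not tested, and no difference was detectable at these counts.

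Decreases were found in members with and without introns. Of the 5 tested members with an annotated intron, 2 fell (40%, *Jon65Aiii* and *Jon74E*), and the median change on the log2 scale was −0.64. Of the 23 without introns, 9 fell (39.1%) and 1 rose (4.35%), and the median was −0.49. Among all genes tested, 19.1% fell and 16.0% rose. The 5 deepest decreases, those of *thetaTry*, *Jon99Ciii*, *Ser6*, *Jon99Cii* and *Jon99Fi*, were in genes with no annotated intron. Most tested members, 23 of 28, have none. The difference between genes with and without introns was not tested.

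Members also varied between samples of 1 genotype. The highest over the lowest sample of a member had a median ratio of 1.31 in *ecd1* and 1.36 in *w1118*, and 1.07 between *w1118* replicates 2 and 3. In *w1118* replicate 1, *Jon25Bii* was at 0.315, *Jon25Bi* at 0.320, *lambdaTry* at 0.456 and *kappaTry* at 0.609 of the mean of the other controls, while *Jon99Ciii* was at 1.46 and *Jon99Cii* at 1.50 of it. So this sample, which had the high glue gene count, was low in some proteases and high in others, and its sum over all members was not low. In *ecd1*, replicate 1 deviated for a different set, with *Jon44E* at 0.448, *deltaTry* and *Jon99Ci* at 0.582 each and *Jon25Biii* at 0.599 of the mean of replicates 2 and 3, and *Jon99Fii* at 1.93 and *gammaTry* at 2.03 of it. The part of these sample differences in the results was not tested beyond leaving out each sample.

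**Figure D5:**
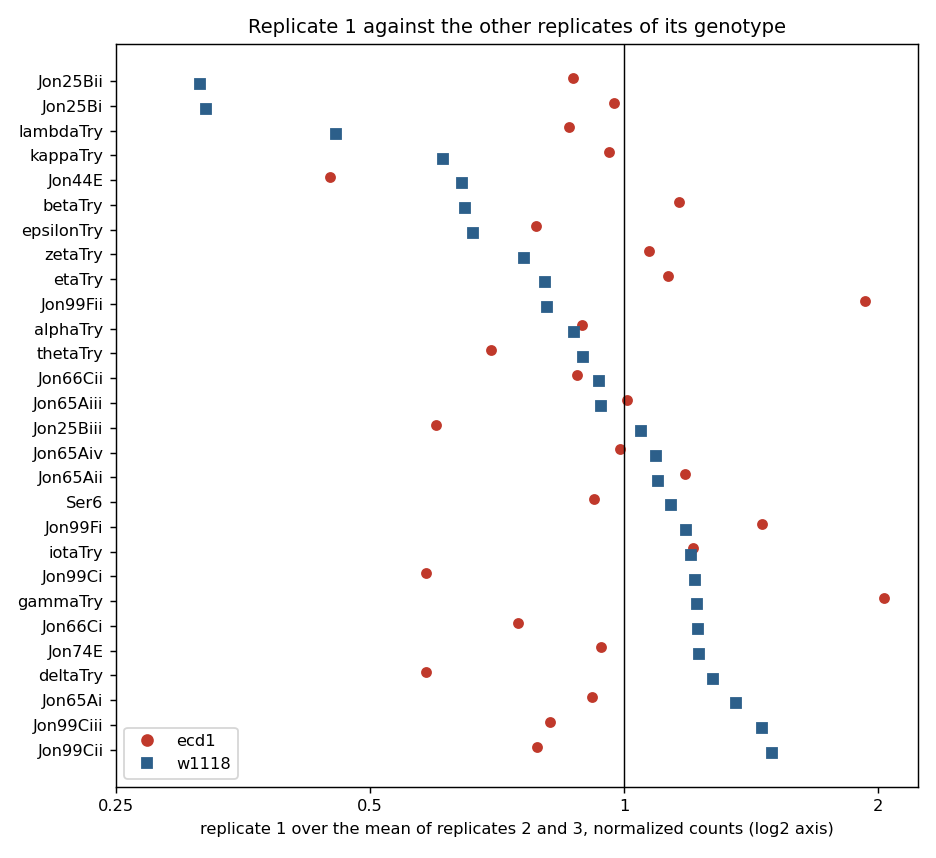
For each tested member, the normalized count of replicate 1 divided by the mean of replicates 2 and 3 (log2 axis) is given for ecd1 (circles) and w1118 (squares), ordered by the w1118 value. The w1118 values run from 0.315 for Jon25Bii to 1.50 for Jon99Cii, and the ecd1 values from 0.448 for Jon44E to 2.03 for gammaTry.

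Relatives of the members outside the naming rule were compared as well. *yip7*, which encodes a serine protease close to the Jonah family, had 290955, 188508 and 238805 normalized counts in *ecd1* and 457725, 368214 and 381205 in *w1118*, and it fell (−0.76, SE 0.20, adjusted p = 0.0285). *CG30025* and *CG30031*, trypsin genes close in sequence to *gammaTry* and *deltaTry*, did not pass (−0.42, SE 0.19, adjusted p = 0.123, and −0.45, SE 0.53, adjusted p = 0.537). Other digestive enzymes were also measured. Of 19 genes for amylases, maltases, lysozymes and the lipase *mag*, 3 fell and 3 rose (15.8% each, where 19.1% of all genes tested fell and 16.0% rose), and their median log2 fold change was 0.11. *Mal-A5*, a maltase (−1.87, adjusted p = 0.0293), and the lysozymes *LysC* (−1.06, adjusted p = 0.0096) and *LysS* (−1.44, adjusted p = 0.0391, but 0.0511 with the replicate block and 0.0679 without *w1118* replicate 1) fell, whereas *Amyrel*, an amylase relative (3.17, adjusted p = 0.0355), and the maltases *Mal-A7* (2.33, adjusted p = 0.0238) and *Mal-A8* (1.33, adjusted p = 0.0109) rose. With the replicate block, 2 of the 19 fell and 5 rose, where 2718 of all 12930 genes tested fell and 1999 rose. Leaving out a sample gave 1 to 3 that fell and 1 to 5 that rose. In those fits 1485 to 2709 of all genes tested fell and 882 to 2448 rose. The lysozymes *LysB* and *LysD* had more counts than *LysC* and *LysS* in every sample. They did not pass (−0.06, adjusted p = 0.807, and −0.05, adjusted p = 0.877). The division of reads between similar lysozyme genes is not known. The difference between the proteases and the 19 other enzymes was not tested.

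A list of regulators of digestive enzyme genes was tested next. In *Drosophila*, the activin-like ligand Dawdle acts through the receptor Baboon to repress digestive enzymes on a sugar-rich diet, and the GATA factor encoded by *GATAe* drives midgut genes. Of 11 such regulators, 1 fell (9.09%, background 19.1%) and 2 rose (18.2%, background 16.0%). *daw*, which encodes Dawdle, had 7480, 5435 and 5695 normalized counts in *ecd1* and 9337, 8780 and 8953 in *w1118* (−0.55, SE 0.13, adjusted p = 0.0200). *babo* rose (0.26, SE 0.08, adjusted p = 0.0403, but 0.0916 with the replicate block), as did *Hr96*, a nuclear receptor of lipid metabolism (0.60, SE 0.14, adjusted p = 0.0161). *GATAe* did not pass (0.18, SE 0.10, adjusted p = 0.225).

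Markers of gut cells were measured beside the proteases. Of 6 markers of enterocytes and copper cells (*nub*, *mex1*, *Myo31DF*, *GATAe*, *lab* and *Vha100-4*), 0 passed with limma, 0 had an unadjusted p below 0.05, and 0 passed with edgeR or DESeq2. Their median log2 fold change was 0.26, with a negative value in 1 of the 6. None was at 0, and their summed normalized count ranged from 63349 to 73427 in *ecd1* and from 45853 to 70238 in *w1118*. The lowest of these sums was that of *w1118* replicate 1. Of 3 midgut progenitor markers 0 passed, also at an unadjusted p below 0.05 and with edgeR or DESeq2. All 3 differences were negative, with a median of −0.34. In 2 of them (*esg* and *Sox21a*, 66.7%, background 26.9%) every *ecd1* sample was below every control. The sums of the 3 genes were 1383 to 1586 in *ecd1* and 1538 to 2332 in *w1118*. Of 10 enteroendocrine peptide and factor genes 2 rose (20%, background 16.0%), *Tk* (1.52, SE 0.14, adjusted p = 0.0022) and *Orcokinin* (0.69, SE 0.18, adjusted p = 0.0255), and 0 fell. At an unadjusted p below 0.05, 5 rose and 0 fell, and the share of all genes at that threshold was not computed. With each of edgeR and DESeq2 3 rose, where 2244 (edgeR) and 2547 (DESeq2) of all 12930 genes tested rose. The sums of the 10 genes were 17242 to 17798 in *ecd1* and 15582 to 16056 in *w1118*, and were not tested. The largest term of each sum was *CCHa2*, with 7523 to 8320 in *ecd1* and 7372 to 8194 in *w1118*. It did not pass (0.05, adjusted p = 0.654). With the replicate block *CCHa1* (adjusted p = 0.0232) and *Mip* (adjusted p = 0.0445) passed as well, each with a positive difference. Several of these peptides are also made by neurons, which whole larvae contain. The enterocyte and progenitor markers were likewise read from whole larvae, so their counts may include cells outside the gut. The paper used a driver of *nub* (*nubbin*) to express transgenes in the wing pouch. The part of cell numbers in the protease changes was not tested.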

How the data were processed

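Total RNA of whole larvae (3 *ecd1* and 3 *w1118* samples of 8 larvae) was sequenced as read pairs of 100 bp. Per the submitters' processing notes and the methods, reads were aligned with TopHat2 2.0.10 to dm6 and counted per gene with featureCounts 1.6.4. The values that the authors deposited are normalized counts, a signal per gene equal to the read count over the DESeq2 size factor of the sample. The DESeq2 version and the settings for strand and for reads shared by similar genes are not given in the sources used here. The deposited quality report gives the fraction of reads on 1 strand and the mean insert size, whose unit it does not name. The authors' own fold changes, p-values, GO terms and splicing differences were not used. All 6 columns of values matched a sample title.

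The table was read by gene symbol. Low values fall on steps of 1 read, from which 100% of the nonzero values came out whole, to a tolerance of 0.05 reads. Differences were tested, two-sided, with limma 3.58.1 and a variance trend (R 4.3.3) on log2(normalized count + 1), with genotype as the only term, over genes with a mean of at least 10, adjusted by Benjamini-Hochberg over all genes tested. It called 4538 genes. On the recovered reads, edgeR 4.0.16 called 4641 genes and DESeq2 1.42.0 called 5483 genes as alternatives. The scripts were tested on simulated data. Nothing in the sources states more than that samples are biological replicates, and p-values measure the spread between these samples. Levels between genes were compared per kb of exon from Ensembl release 115, which is on the same build. Counts of 0 and of few reads cover counting error only.

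Every member was named, with values in each sample for the 5 most abundant, those that passed and those that moved against most members. Ratios of neighboring genes, overlapping genes and ratios between replicates were added after values were seen. Genes of other digestive enzymes, regulators and cell markers came from lists. The members and lists were chosen with earlier results of these data known.

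Replicate numbers were checked as pairs. Deviations from the genotype means had correlations of 0.209, 0.232 and 0.225 for equal numbers and −0.274 to 0.0541 for unequal numbers. The main fit did not treat the numbers as pairs. On the evidence of these values alone, a fit with a block for replicate number was run as an alternative. Other alternatives were quantile normalization, pseudocounts of 0.5 and 10, no filter, no variance trend and leaving out each sample.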

Additional observations from a re-analysis of the deposited data

How the results depend on the processing

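Few or no reads were counted for *Ser7*, *Ser8* and *Ser12*, which were not tested. The members that fell numbered 11 in the main fit, 10 with edgeR, 16 with DESeq2 and 16 with quantile normalization, 11 with the replicate block, and 9 to 14 when a sample was left out. Of all 12930 genes tested, 2474 fell in the main fit, 2397 with edgeR and 2936 with DESeq2. With quantile normalization 2164 fell, and with the replicate block 2718. With a sample left out, 1485 to 2709 of all genes tested fell. The 9 members *thetaTry*, *Jon99Ciii*, *Ser6*, *Jon99Cii*, *Jon99Fi*, *Jon65Aiii*, *Jon74E*, *Jon65Ai* and *Jon66Cii* passed with every sample left out.

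The member that rose, *Jon25Bi*, was lost with quantile normalization (0 rose, log2 fold change 1.18, adjusted p = 0.0692) and without a variance trend (0 rose, adjusted p = 0.0668), where 1 member rose at an unadjusted p below 0.05 in each case. Leaving out a sample gave 0 to 1 members that rose. The number of all genes called was 4538, and 2367 (without *ecd1* replicate 2) to 5157 (without *w1118* replicate 1) with a sample left out. Among the other digestive enzymes, 3 fell in the main fit, 5 with quantile normalization, and 1 to 3 with a sample left out. In the same list 3 rose in the main fit, 5 with the replicate block, and 1 to 5 with a sample left out. Of all genes tested, 2064 rose in the main fit, 1999 with the replicate block, and 882 to 2448 with a sample left out. With the replicate block, 11 members fell and 1 rose, *Jon44E* passed and *etaTry* did not, and no other call of a member changed.

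The sign changed in members that did not pass: *Jon66Ci* was at 0.053 and *zetaTry* at −0.17 with quantile normalization, and with a sample left out *betaTry* ranged from −0.28 (without *w1118* replicate 1) to 0.046 (without *w1118* replicate 2), *Jon99Fii* from −0.025 (without *ecd1* replicate 1) to 0.53 (without *w1118* replicate 2) and *zetaTry* from −0.11 (without *w1118* replicate 1) to 0.14 (without *w1118* replicate 2). The cause was not tested. Over all members and alternatives, 348 values kept direction and side of the threshold, 18 newly passed, 19 no longer passed and 7 changed sign. The longest transcript of every member was as long as its annotated exons, so using its length could not change the levels per kb.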
